A study of Mus musculus with 9 samples.

Results

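The genes described here encode enzymes and regulators with which a liver cell makes fatty acids from acetyl-CoA and assembles them into triglyceride. They were chosen by name: Srebf1, Acly, Acaca, Acacb, Fasn, Elovl6, Scd1, Scd2, Gpam and Pnpla3. Of these 10 genes, 9 had a feature that carries their symbol alone on the array, out of 22180 genes tested, and each of the 9 had 1 such feature. The only feature for Scd2 carries a second symbol, so Scd2 was not analysed here.

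Expression was measured in TAMH cells, an immortal hepatocyte line from mice that carry a transforming growth factor alpha transgene, on Affymetrix Mouse Gene 2.1 ST arrays. The groups were medium without herbicide (control), diquat at 18 µM and paraquat at 126 µM, each for 9 h and each with 3 arrays. Diquat and paraquat are bipyridylium herbicides that redox-cycle inside cells, and their concentrations here were not matched. The growth medium shared by all groups held insulin, transferrin, selenium, dexamethasone, nicotinamide and gentamicin, and all samples came from 1 cell line. The labels mention 3 dishes for a treatment but not whether these were separate cultures. The p-values therefore reflect only how much these arrays varied, and that variation may be technical.

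In hepatocytes, citrate exported from mitochondria is split by ATP citrate lyase into acetyl-CoA, acetyl-CoA carboxylase converts it to malonyl-CoA, and fatty acid synthase builds palmitate from both. Palmitate is then elongated, desaturated and joined to glycerol 3-phosphate, the first committed step toward triglyceride. Insulin raises this program through the transcription factor SREBP-1c, a product of Srebf1, and glucose raises it through ChREBP, the product of Mlxipl.

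All values are log2 expression values as deposited, between 3.89 and 13.19, with array medians from 5.95 to 6.04. Array pairs correlated at 0.9936 to 0.9989 across features, and diquat replicate 3 lay furthest from its group mates (a log2 root-mean-square difference of 0.134, where the others had 0.0714 to 0.115). The label of a hepatocyte line was set against its markers: in controls the 8 measured hepatocyte markers ranged from 8.68 for Cps1 to 12.73 for the albumin gene Alb. Markers of other cell types were not all low, with Dcn at 11.07, Sox9 at 10.20 and Fabp4 at 7.53, while Adipoq, the defining adipocyte hormone, stood at 5.46. These are values of different probe sets, whose levels cannot be ranked against each other. Detection calls were not used here, and the lowest values may be background alone.

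Diquat lowered 4 of the 9 genes and raised none at an adjusted p under 0.05 in limma. The 4 were Pnpla3, Gpam, Srebf1 and Elovl6, with falls between 1.13-fold and 1.44-fold. Among all genes tested, 7.02% were called, 2.89% as lower and 4.13% as higher. The median difference of the 9 genes was -0.10 on the log2 scale, against -0.02 over all genes tested, and all 9 fitted differences lay below 0, as did 57.7% of all genes. At an unadjusted p under 0.05, which 21.6% of all genes reached, the counts were also 4 lower and 0 higher. With each array centred on its median, 2 genes were called lower, Gpam and Pnpla3, and the difference of Acly was 0.03. Without control replicate 1 the count was 2, and without control replicate 2 it was 1.

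Paraquat lowered 3 of the 9 genes, Pnpla3, Gpam and Srebf1, and raised none in limma, where 4.57% of all genes were called, 2.24% as lower and 2.33% as higher. At an unadjusted p under 0.05, which 15% of all genes reached, 6 of the 9 were lower and 0 higher. The fitted difference was below 0 for 8 of the 9 genes and for 50.9% of all genes. Their median difference was -0.14, against 0.00 over all genes tested. Without paraquat replicate 2 or without paraquat replicate 3 the count of genes called lower was 1. Both comparisons used the same 3 control arrays, so they are not independent of each other. In bulk RNA, fewer cells of one state and less RNA of a gene per cell cannot be told apart.

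**Figure D1:**
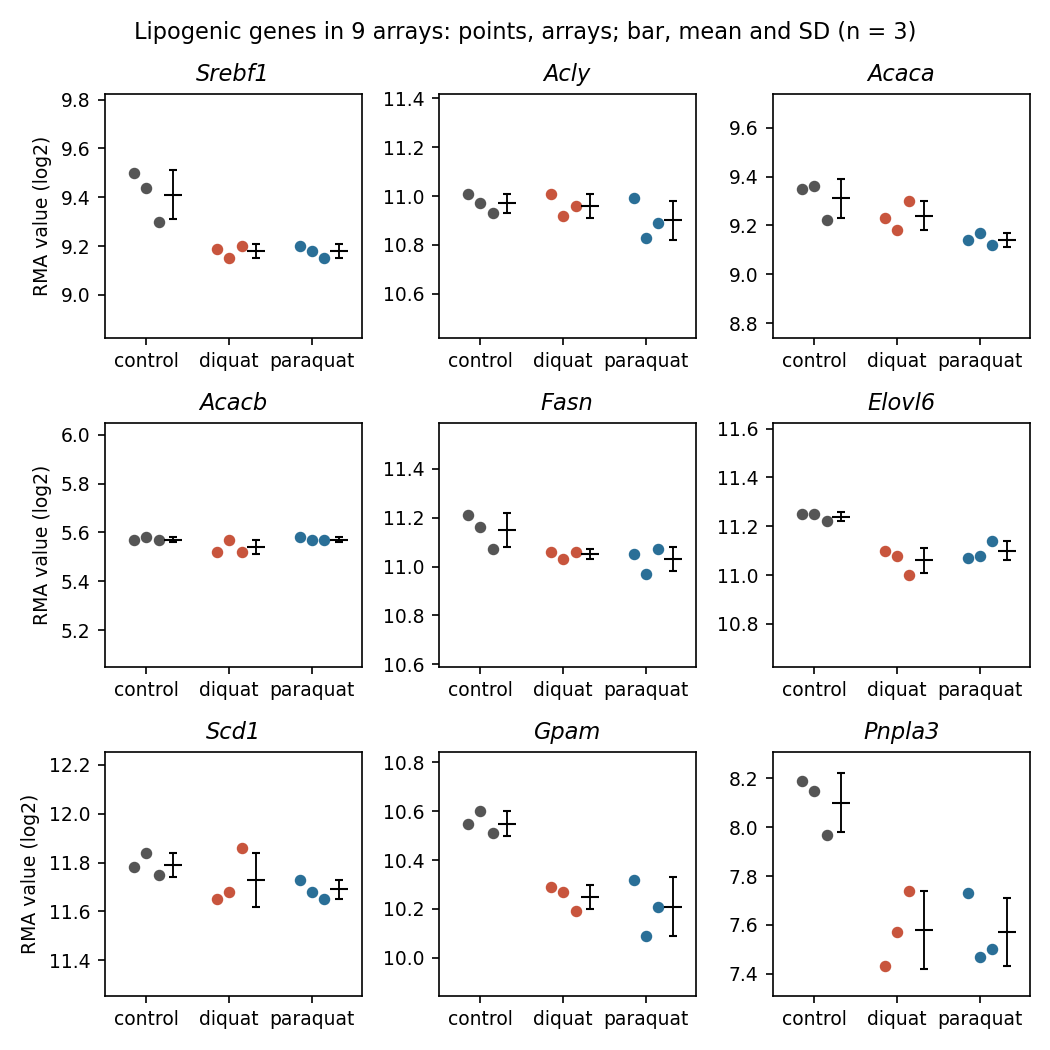
Log2 expression values (vertical axis, a range of 1 in every panel) of the 9 genes in 3 control, 3 diquat and 3 paraquat arrays; points are arrays and the bar beside each group is its mean with SD. For Srebf1, Gpam and Pnpla3 every treated array lies below every control array, while Acly and Acacb overlap between the groups.

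Pnpla3 had the largest fall. It encodes a lipid droplet protein of the patatin family whose transcription in liver is known to follow SREBP-1c. Its log2 values were 8.19, 8.15 and 7.97 in controls, 7.43, 7.57 and 7.74 with diquat, and 7.73, 7.47 and 7.50 with paraquat. All 6 treated arrays thus lay below the lowest control. Pnpla3 was lower by 0.52 ± 0.09 with diquat (SE; 1.44-fold; adjusted p = 0.00851, limma) and by 0.54 ± 0.09 with paraquat (SE; 1.45-fold; adjusted p = 0.00916, limma). The paraquat call was lost narrowly without paraquat replicate 2 (adjusted p = 0.0512) or replicate 3 (0.051), and the diquat call was kept in all 14 alternative settings.

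Gpam, which encodes the mitochondrial glycerol-3-phosphate acyltransferase at the first step of glycerolipid assembly, had the second largest fall. Its log2 values were 10.55, 10.60 and 10.51 in controls, 10.29, 10.27 and 10.19 with diquat, and 10.32, 10.09 and 10.21 with paraquat. The groups of treated arrays again lay wholly below the controls. The falls were 0.30 ± 0.06 with diquat (SE; 1.23-fold; adjusted p = 0.0119, limma) and 0.35 ± 0.06 with paraquat (SE; 1.27-fold; adjusted p = 0.00717, limma). The paraquat call was kept in all 14 alternatives, and the diquat call in all but the fit without control replicate 2 (adjusted p = 0.0585).

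Srebf1, the gene of the SREBP-1 transcription factors that activate lipogenic enzymes, fell by 0.23 ± 0.05 with diquat (SE; adjusted p = 0.0205, limma) and by 0.24 ± 0.05 with paraquat (SE; adjusted p = 0.0238, limma), 1.18-fold in each case. Controls read 9.50, 9.44 and 9.30, diquat arrays 9.19, 9.15 and 9.20, and paraquat arrays 9.20, 9.18 and 9.15 on the log2 scale. The 6 treated arrays lay close together below all controls, which spread more widely, with replicate 3 the lowest. The feature does not tell the isoforms SREBP-1a and SREBP-1c apart in these data. The call was lost with diquat without control replicate 1 (adjusted p = 0.076), control replicate 2 (0.0878) or diquat replicate 1 (0.0561), with the arrays centred (0.0567) and with the 2 groups alone (0.0689). With paraquat it was lost without control replicate 1 (0.0962), control replicate 2 (0.104) or any paraquat array (0.0538, 0.0846 and 0.101 without replicate 1, 2 or 3), and with the 2 groups alone (0.0562).

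Elovl6, the elongase that turns palmitate into stearate, fell with diquat from 11.25, 11.25 and 11.22 to 11.10, 11.08 and 11.00 on the log2 scale, by 0.18 ± 0.04 (SE; 1.13-fold; adjusted p = 0.0214, limma). With paraquat the arrays read 11.07, 11.08 and 11.14, also all below the controls, and the difference of -0.14 ± 0.04 (SE) did not pass (adjusted p = 0.0717). The diquat call was lost without any 1 of the control arrays (adjusted p = 0.0785, 0.0836 and 0.051 without replicate 1, 2 or 3), with centred arrays (0.0669) and with the 2 groups alone (0.0508). The paraquat difference passed in 4 of 14 alternatives, with an adjusted p between 0.0203 and 0.217 over all of them. The direct difference between the compounds for Elovl6 was 0.04, with a 95% interval from -0.05 to 0.12.

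The enzymes that make palmitate did not pass the test. Acly, the ATP citrate lyase gene, read 11.01, 10.97 and 10.93 in controls, 11.01, 10.92 and 10.96 with diquat, and 10.99, 10.83 and 10.89 with paraquat, so the groups overlapped. The 95% intervals of its log2 difference ran from -0.11 to 0.10 for diquat and from -0.17 to 0.04 for paraquat. Acaca, the acetyl-CoA carboxylase gene whose cytosolic product feeds fatty acid synthase, was lower by 0.07 ± 0.05 with diquat and by 0.17 ± 0.05 with paraquat (SE; adjusted p = 0.416 and 0.0915, limma). Its paraquat arrays (9.14, 9.17 and 9.12) all lay below the controls (9.35, 9.36 and 9.22), and this difference passed without control replicate 3 (-0.21, adjusted p = 0.0433), with dim genes left out (0.0488), after quantile normalization (0.0318) and with array weights (0.0219). Acacb, the carboxylase isoform whose malonyl-CoA restrains fatty acid oxidation at mitochondria, had low values throughout, 5.57 ± 0.01 in controls, 5.54 ± 0.03 with diquat and 5.57 ± 0.01 with paraquat (SD, n = 3 each).

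Fasn, the fatty acid synthase gene, read 11.21, 11.16 and 11.07 in controls, 11.06, 11.03 and 11.06 with diquat, and 11.05, 10.97 and 11.07 with paraquat. The diquat arrays lay just below the lowest control, and 1 paraquat array equalled it. The differences were -0.10 with a 95% interval from -0.20 to 0.00 for diquat (adjusted p = 0.244, limma) and -0.12 with an interval from -0.22 to -0.02 for paraquat (adjusted p = 0.228, limma), and neither passed in any of 14 alternatives. Scd1, the stearoyl-CoA desaturase that makes oleate, was at 11.79 ± 0.05 in controls, 11.73 ± 0.11 with diquat and 11.69 ± 0.04 with paraquat (SD, n = 3 each). Diquat replicate 3 had the highest Scd1 value of all arrays (11.86), and without it the diquat difference was -0.13 in place of -0.06, still short of the test (adjusted p = 0.132).

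**Figure D2:**
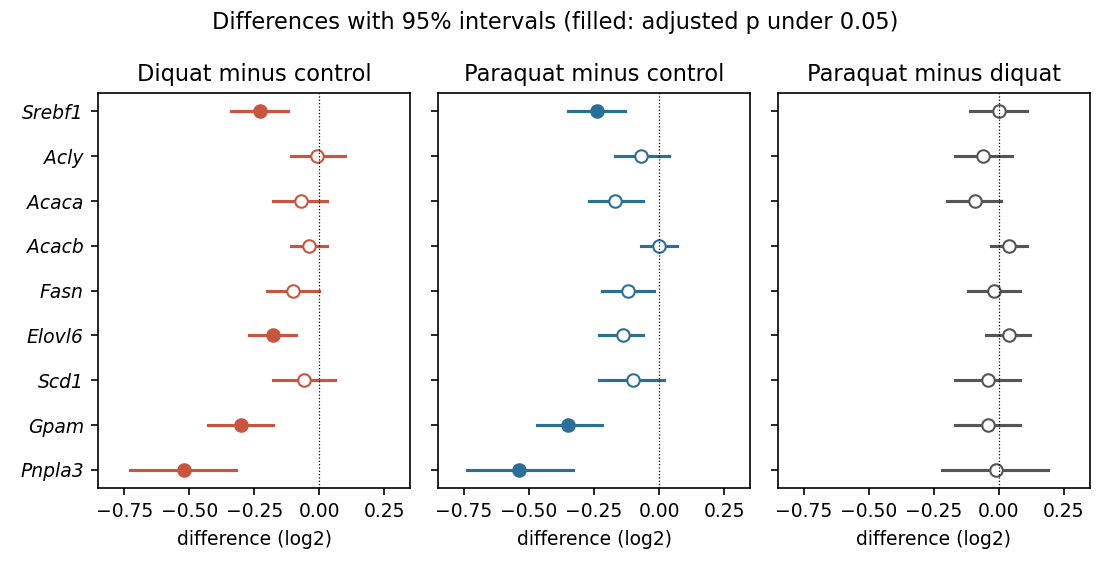
Fitted log2 differences (horizontal axes) of the 9 genes for diquat against control, paraquat against control and paraquat less diquat; lines are 95% intervals and filled points have an adjusted p under 0.05. Pnpla3 and Gpam lie furthest below 0 in both comparisons with control, and every interval between the compounds includes 0.

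Counting arrays rather than fits, all 3 diquat arrays lay below all 3 controls for 5 of the 9 genes (Srebf1, Fasn, Elovl6, Gpam and Pnpla3), against 11.2% of all genes. With paraquat this held for 6 of 9 (Srebf1, Acaca, Elovl6, Scd1, Gpam and Pnpla3), against 10.4% of all genes. None of the 9 lay wholly above the controls with either compound, where 10.1% of all genes did with diquat and 9.05% with paraquat. Averaged over the 9 genes, the difference from the control mean was -0.18, -0.18 and -0.14 in the diquat arrays and -0.14, -0.23 and -0.20 in the paraquat arrays, on the log2 scale. The controls read 0.03, 0.03 and -0.06, and control replicate 3 was below the control mean for all 9 genes. The 2 compounds therefore gave values of like size in every array, and control replicate 3 came nearest to them.

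No gene among the 9 differed between paraquat and diquat in limma at an adjusted p under 0.05 (0%, as over all genes tested) or at an unadjusted p under 0.05, which 10.7% of all genes reached. The paraquat arrays lay wholly below the diquat arrays for 1 of the 9, Acaca, against 5.18% of all genes, and wholly above for 0, against 5.36%. The paraquat value was the lower for 7 of the 9 and for 45% of all genes. The differences ranged from -0.09 for Acaca to 0.04 for Acacb and Elovl6 on the log2 scale. For Pnpla3 the 95% interval ran from -0.22 to 0.19, for Gpam from -0.17 to 0.08 and for Srebf1 from -0.11 to 0.11, which leaves room for differences of that size. The concentrations differed between the compounds, so this compares the groups as dosed.

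The start regions of the 3 genes lower with both compounds are shown beside that of Fasn, which did not pass. The 250 bases before a RefSeq transcription start (build GRCm38.p6) were searched on both strands for the sterol response element TCACNCCAC, the E-box CACGTG, the NF-Y site CCAAT and the GC box GGGCGG. Capitals mark matches to CCAAT (or its reverse complement ATTGG) and GGGCGG (or CCGCCC). In Fasn a pair of CCAAT matches on opposite strands overlap by 2 bases. Srebf1 had 3 starts and Gpam 2 in the table. The start with the most matches is shown for Srebf1, and for Gpam, whose starts tied, the one with a CCAAT box. The windows shown were thus picked by their matches. The other Gpam start and a further Srebf1 start held no CCAAT box. The regions are chr11:60210472-60210721 (minus strand), chr19:55127239-55127488 (minus strand), chr15:84167566-84167815 (plus strand) and chr11:120824548-120824797 (minus strand).
Srebf1: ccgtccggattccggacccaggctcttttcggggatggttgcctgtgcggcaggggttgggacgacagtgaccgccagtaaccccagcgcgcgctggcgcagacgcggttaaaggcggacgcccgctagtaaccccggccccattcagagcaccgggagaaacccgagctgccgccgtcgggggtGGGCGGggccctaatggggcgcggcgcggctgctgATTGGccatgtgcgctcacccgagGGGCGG
Gpam: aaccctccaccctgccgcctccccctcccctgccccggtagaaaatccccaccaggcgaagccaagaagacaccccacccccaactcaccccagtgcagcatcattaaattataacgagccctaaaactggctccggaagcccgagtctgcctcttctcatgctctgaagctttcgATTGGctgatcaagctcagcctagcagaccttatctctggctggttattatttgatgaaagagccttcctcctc
Pnpla3: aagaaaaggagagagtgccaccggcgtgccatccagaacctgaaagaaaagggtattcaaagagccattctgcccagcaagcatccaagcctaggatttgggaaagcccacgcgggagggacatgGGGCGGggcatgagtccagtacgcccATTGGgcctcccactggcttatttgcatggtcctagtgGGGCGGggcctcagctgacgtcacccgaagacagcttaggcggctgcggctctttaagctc
Fasn: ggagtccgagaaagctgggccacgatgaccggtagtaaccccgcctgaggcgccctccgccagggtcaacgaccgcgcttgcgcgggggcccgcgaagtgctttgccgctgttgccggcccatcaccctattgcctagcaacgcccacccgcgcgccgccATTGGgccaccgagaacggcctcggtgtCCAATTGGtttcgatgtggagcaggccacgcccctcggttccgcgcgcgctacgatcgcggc

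Entries were found for 8 of the 9 genes, all but Scd1. A CCAAT box was present before at least 1 start of 5 of the 8 genes (Srebf1, Acacb, Fasn, Gpam and Pnpla3), against 37.5% of all genes in the table, and a GC box in 4 of 8 (Srebf1, Acly, Gpam and Pnpla3), against 35.4%. By window, 6 of 11 held a CCAAT box, against 33.8% of all windows, and 5 of 11 a GC box, against 32.7%. The exact letters of the sterol response element were in none of the windows of the 8 genes, against 1.22% of all genes, nor was the E-box, against 6.86%. These are exact letter matches in windows of 1 length, so sites that differ by a base were not counted. The matches were not tied to binding or to the differences above.

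Regulators of the program were followed in lists of other lipid genes. Mlxipl, which encodes ChREBP, fell by 0.37 ± 0.07 with diquat and by 0.36 ± 0.07 with paraquat (SE; 1.29-fold each; adjusted p = 0.0153 and 0.0195, limma). Controls read 9.30, 9.11 and 9.23, diquat arrays 8.71, 8.98 and 8.85, and paraquat arrays 8.94, 8.81 and 8.80. Pparg, a nuclear receptor that drives fat storage in adipocytes, rose by 0.55 ± 0.06 and 0.65 ± 0.06 (SE; 1.46-fold and 1.57-fold; adjusted p = 4.76e-04 and 2.07e-04, limma). Its log2 values went from 7.49, 7.38 and 7.54 in controls to 7.97, 8.10 and 7.98 with diquat and 8.08, 8.06 and 8.22 with paraquat, with no overlap. The rise of Pparg was kept in all 14 alternatives with both compounds.

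Of 11 measured regulators other than SREBP genes, diquat raised 1 (Pparg) and lowered 3 (Mlxipl, the oxysterol receptor LXR alpha gene Nr1h3 by 0.25 and Mid1ip1, a partner of acetyl-CoA carboxylase, by 0.16), and paraquat raised 1 and lowered 1 (Mlxipl). Over all genes tested, 7.02% were called with diquat and 4.57% with paraquat, and the list medians were -0.04 with both compounds. Mlxipl was not called without control replicate 1 (adjusted p = 0.0664 with diquat, 0.0923 with paraquat), control replicate 3 (0.0568 and 0.0706) or, for paraquat, replicate 2 (0.0891) or 3 (0.0919). Nr1h3 was not called without control replicate 1, 2 or 3 (0.124, 0.0521 and 0.0859) or diquat replicate 1 or 3 (0.112 and 0.0755). Mid1ip1 was not called without control replicate 1, 2 or 3 (0.0575, 0.0943 and 0.0719) or diquat replicate 3 (0.0502), and the mean of its features gave -0.04. With paraquat Nr1h3 was at -0.17 and Mid1ip1 at -0.07 (0.179 and 0.361). Thrsp, a lipogenic factor named Spot 14, changed by -0.11 with diquat and -0.04 with paraquat and did not pass (0.221 and 0.799).

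The genes that hold SREBP proteins in the endoplasmic reticulum or release them did not pass. Of 6 measured (Srebf2, Scap, Insig1, Insig2, Mbtps1 and Mbtps2), limma called 0 with either compound. At an unadjusted p under 0.05 diquat had 1 higher and 1 lower, and paraquat 0 and 1. Srebf2, whose product drives sterol synthesis, was lower by 0.18 with diquat (adjusted p = 0.0709) and by 0.14 with paraquat (0.223). The diquat difference passed in 3 of 14 alternatives, with a trended robust prior (0.0453), with dim genes left out (0.0383) and after quantile normalization (0.0284). The retention factor gene Insig1, itself an SREBP target, changed by -0.05 with both compounds (0.535 and 0.73). Scap, the escort of SREBP, read 0.08 and 0.07, and Insig2 0.00 with both, none past the test.

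Of 8 measured genes for acetyl-CoA and NADPH supply, 2 were called with diquat, where 7.02% of all genes were. Diquat raised Pgd, a pentose phosphate dehydrogenase gene, by 0.20 (adjusted p = 0.0164) and lowered Idh1, the cytosolic isocitrate dehydrogenase gene, by 0.22 (0.0363). Paraquat changed 0 in limma (0 higher and 2 lower at an unadjusted p under 0.05). The Pgd call was lost without control replicate 1 or 3 (0.0684 and 0.0622) or diquat replicate 1 (0.0577), and the Idh1 call without control replicate 1, 2 or 3 (0.132, 0.0864 and 0.0829) or diquat replicate 1 or 2 (0.117 and 0.0759). With paraquat Idh1 was at -0.17 (0.146) and Pgd at 0.06 (0.629). The citrate carrier gene Slc25a1 changed by -0.02 and -0.05, the malic enzyme gene Me1 by 0.12 and 0.03, and the acetyl-CoA synthetase gene Acss2 by -0.17 and -0.12, none past the test.

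Of 14 other elongation, desaturation and activation genes, 1 fell with each compound and 0 rose, where 7.02% and 4.57% of all genes were called. It was Elovl2, an elongase of polyunsaturated acyl chains, lower by 0.32 ± 0.07 with diquat and by 0.35 ± 0.07 with paraquat (SE; adjusted p = 0.0203 and 0.018, limma). Without control replicate 1 or 2 it was not called with diquat (0.0812 and 0.0747) or paraquat (0.0853 and 0.0717), nor without diquat replicate 3 (0.0639) or paraquat replicate 2 or 3 (0.0777 and 0.0761). The desaturase genes Fads1 and Fads2 changed by -0.06 and -0.03 with diquat and by -0.04 and -0.10 with paraquat, and Elovl5 by -0.02 and -0.03, none past the test.

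Among 16 other genes of glycerolipid synthesis, the clearest fall was in Gpd1, the cytosolic glycerol-3-phosphate dehydrogenase that supplies the backbone used by Gpam. It went from 10.28, 10.34 and 10.23 in controls to 9.91, 9.98 and 10.05 with diquat and 9.99, 9.97 and 9.84 with paraquat. It was lower by 0.30 ± 0.05 and 0.35 ± 0.05 (SE; adjusted p = 0.0079 and 0.00447, limma), and the call was kept in all 14 alternatives. A second, dimmer Gpd1 feature went from 6.85 in controls to 6.70 and 6.80, so with the mean of both features the falls were 0.23 and 0.20.

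Diquat called 1 higher and 2 lower in the glycerolipid list, where 7.02% of all genes were called. It lowered Dgat2, the final acyltransferase of triglyceride synthesis, by 0.27 ± 0.05 (SE; adjusted p = 0.0133, limma) and raised Lpin1, the phosphatidate phosphatase gene, by 0.28 ± 0.05 (SE; adjusted p = 0.00578, limma). With paraquat Dgat2 read -0.06 and Lpin1 0.12 (0.742 and 0.233), while the differences between the compounds were 0.21 and -0.16 and did not pass (0.338 and 0.356). The Dgat2 call was lost without control replicate 1 (0.0601) or diquat replicate 1 (0.0519). Paraquat called 1 higher and 1 lower: besides Gpd1, Gpat3, another glycerol-3-phosphate acyltransferase gene, rose by 0.26 (adjusted p = 0.01) from a low 5.98, and it was not called without control replicate 1 (0.0512) or with the mean of its features (0.13, adjusted p = 0.0901). With diquat Gpat3 was at 0.10 (0.228). Dgat1, Agpat2 and Gpat4 changed by -0.03, -0.11 and -0.10 with diquat and by -0.03, -0.08 and -0.11 with paraquat, none past the test. The share of all genes called with paraquat was 4.57%.

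**Figure D3:**
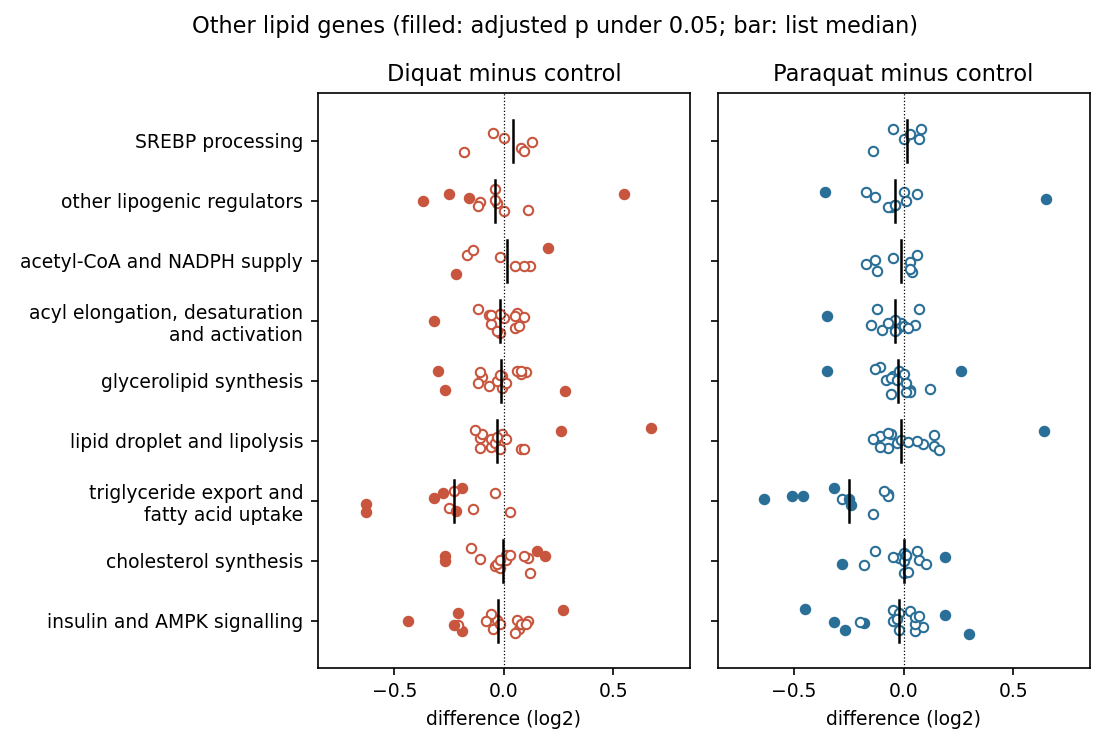
Fitted log2 differences (horizontal axes) for 115 other lipid genes in 9 lists, diquat minus control on the left and paraquat minus control on the right; each point is a gene, filled where the adjusted p is under 0.05, and the bar is the list median. The list of triglyceride export and fatty acid uptake has medians of -0.23 and -0.25, and the medians of the other lists lie between -0.04 and 0.04.

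At the lipid droplet, Hilpda, which encodes an inhibitor of the lipase ATGL and is known to respond to hypoxia and lipid load, rose by 0.67 ± 0.05 with diquat and by 0.64 ± 0.05 with paraquat (SE; 1.59-fold and 1.55-fold; adjusted p = 4.22e-05 and 7.3e-05, limma). Controls read 7.33, 7.47 and 7.37, diquat arrays 8.05, 8.07 and 8.07, and paraquat arrays 8.12, 7.96 and 8.00. The treated arrays stood well apart from the controls, and both calls were kept in all 14 alternatives. Of 15 measured droplet and lipolysis genes, diquat raised 2 and paraquat 1, and neither lowered any (at an unadjusted p under 0.05, 3 were lower with each). The second with diquat was Fitm2, a gene for a droplet biogenesis protein (0.26 ± 0.04, SE; adjusted p = 0.00585, limma). With paraquat Fitm2 was at 0.16 (0.0711) and passed in 3 of 14 alternatives. Its difference between the compounds, paraquat less diquat, was -0.10 (0.46). The lipase gene Pnpla2, a relative of Pnpla3, changed by -0.06 and -0.07, and the droplet coat gene Plin2 by 0.09 and 0.14, none past the test. Beside these counts, 7.02% of all genes were called with diquat and 4.57% with paraquat.

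The triglyceride export and fatty acid uptake list also held genes that act on lipid inside the cell, such as the lysosomal lipase gene Lipa. Of 11 measured, 6 fell with diquat and 6 with paraquat, where 2.89% and 2.24% of all genes were lower, and 0 rose in limma (0 also at an unadjusted p under 0.05). Of these calls, those of Cd36 and Slc27a2 with both compounds and of Tm6sf2 with diquat were kept in every alternative, and each of the others was lost without at least 1 of the arrays. Cd36, a fatty acid transporter, went from 7.38, 7.24 and 7.38 to 6.59, 6.89 and 6.64 with diquat and 6.94, 6.85 and 6.82 with paraquat, falls of 0.63 ± 0.08 and 0.46 ± 0.08 (SE; adjusted p = 9.16e-04 and 0.00671, limma). Slc27a2, a very-long-chain acyl-CoA synthetase and transporter gene, was lower by 0.63 ± 0.10 and 0.64 ± 0.10 (SE; adjusted p = 0.00475 and 0.00538, limma) on its brighter feature. That feature was itself low, at 6.83 in controls and 6.19 with each compound. Slc27a2 had 13 alternatives, as it was not tested with dim genes left out. The other Slc27a2 feature was dim in each group, at 5.16, 5.17 and 5.19, so the mean of both gave falls of 0.31 and 0.30.

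On the export side, Tm6sf2, which takes part in loading lipid onto very-low-density lipoprotein, fell by 0.28 ± 0.04 with diquat and by 0.24 ± 0.04 with paraquat (SE; adjusted p = 0.00465 and 0.0128, limma). Mttp, the transfer protein that lipidates apolipoprotein B, fell by 0.32 with each compound (adjusted p = 0.0363 and 0.0445), and the lysosomal lipase gene Lipa by 0.22 and 0.25 (0.0271 and 0.0213). The sixth was Apob with diquat, lower by 0.19 (0.0205), and the liver fatty acid binding protein gene Fabp1 with paraquat, lower by 0.51 (0.0143). Apob read -0.14 with paraquat and Fabp1 -0.25 with diquat, neither past the test (adjusted p = 0.0956 and 0.167, limma). Their differences between the compounds, paraquat less diquat, were 0.05 and -0.26 and did not pass (0.653 and 0.433). With paraquat, Tm6sf2 was not called without control replicate 2 or 3 (0.053 and 0.0541) or paraquat replicate 2 or 3 (0.0625 and 0.0594), and Fabp1 not without control replicate 1 or 2 (0.0687 and 0.0726) or paraquat replicate 2 or 3 (0.0625 and 0.0707). Mttp was not called with diquat without control replicate 1 or 2 (0.107 and 0.144) or diquat replicate 1 or 2 (0.0794 and 0.0674), and with paraquat without control replicate 1 or 2 (0.137 and 0.177) or paraquat replicate 1, 2 or 3 (0.0521, 0.173 and 0.163). Lipa was not called without control replicate 1 or 2 (0.107 and 0.0953 with diquat, 0.0985 and 0.0834 with paraquat), diquat replicate 1 or 2 (0.0894 and 0.0605) or paraquat replicate 2 or 3 (0.0954 and 0.0965). Apob was not called without control replicate 1 or 2 (0.0645 and 0.0809) or diquat replicate 1 (0.0659). With the arrays centred, Mttp, Apob and Lipa were not called with diquat (adjusted p = 0.0788, 0.0804 and 0.0986, limma). Centring also ended the Mttp call with paraquat (0.0683).

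Cholesterol synthesis, the other branch under SREBP control, showed no common direction. Of 16 measured genes, diquat raised 2 and lowered 2 and paraquat raised 1 and lowered 1, with medians of 0.00. The shares of all genes called were 7.02% and 4.57%. Ebp, a sterol isomerase gene, fell by 0.27 with diquat and by 0.28 with paraquat (adjusted p = 0.0121 and 0.0122), Msmo1, a sterol oxidase gene, rose by 0.19 with each (0.0161 and 0.0181), and with diquat the kinase genes Mvk and Pmvk moved by -0.27 and 0.15 (0.0163 and 0.0492). Without control replicate 1, Ebp was not called (0.0546 and 0.0604). Msmo1 was not called without control replicate 2 (0.0706 with diquat, 0.0812 with paraquat), nor with paraquat without control replicate 3 (0.0557) or paraquat replicate 1, 2 or 3 (0.0631, 0.0568 and 0.0566). Mvk was not called without control replicate 1 or 3 (0.0653 and 0.0602) or diquat replicate 1 (0.0589), and Pmvk not without any of the 6 arrays compared (0.0526 to 0.154). With paraquat Mvk was at -0.18 (0.112), past the test in 3 of 14 alternatives, and Pmvk at 0.01 (0.964).

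Upstream of Srebf1, the insulin receptor substrate gene Irs1 fell from 7.74, 7.60 and 7.56 in controls to 7.17, 7.08 and 7.34 with diquat and 7.23, 7.06 and 7.27 with paraquat. The falls were 0.44 ± 0.08 and 0.45 ± 0.08 (SE; adjusted p = 0.00866 and 0.00948, limma), kept in all 14 alternatives. A dimmer Irs1 feature read 5.75, 5.65 and 5.76, and the mean of both gave falls of 0.27 and 0.22. Of 18 measured genes of insulin and AMPK signalling, 1 rose and 4 fell with diquat and 2 rose and 4 fell with paraquat. Among all genes, 7.02% and 4.57% were called. Irs2 fell by 0.19 and 0.27 (0.0457 and 0.0107), the kinase genes Akt2 and Prkaa1 changed by 0.06 and -0.06 with diquat and 0.05 and -0.05 with paraquat without passing, and the AMPK subunit gene Prkag2 was lower by 0.21 with diquat (0.0509) and fell by 0.32 with paraquat (0.00848). The Irs2 call with diquat was lost without any of the 6 arrays compared (0.0722 to 0.135), and with paraquat without control replicate 1 (0.0512).

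The other calls in this list were small. Prkab2, an AMPK subunit gene, rose by 0.27 with diquat and 0.30 with paraquat (adjusted p = 0.0365 and 0.0324), Prkab1 rose by 0.19 with paraquat (0.0426), the PI3-kinase regulatory gene Pik3r1 fell by 0.21 and 0.18 (0.0191 and 0.0445), and the AMPK-activating kinase gene Stk11 fell by 0.23 with diquat (0.0418). Without control replicate 2 none of these 6 calls passed: Prkab2 0.127 and 0.124, Prkab1 0.165, Pik3r1 0.0686 and 0.136, Stk11 0.0973. Prkab2 was also not called with diquat without control replicate 1 or 3 or diquat replicate 2 or 3 (0.0783 to 0.111), nor with paraquat without any of the 6 arrays compared (0.0549 to 0.124). Prkab1 was not called without control replicate 3 or any paraquat array (0.0771 to 0.148). Pik3r1 was not called with diquat without control replicate 1 (0.0798), nor with paraquat without any of the 6 arrays (0.0553 to 0.178). Stk11 was not called without control replicate 1 or 3 or diquat replicate 1 or 2 (0.0757 to 0.148). With paraquat Stk11 was at -0.20 (0.0964), and with diquat Prkab1 was at 0.10 (0.228).

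Of 8 measured hepatocyte markers, diquat lowered 5 (Ttr, Apob, Hnf4a, Tat and Cps1) and paraquat lowered 3 (Ttr, Fgb and Cps1), where 2.89% and 2.24% of all genes were lower. Among the 5, Hnf4a sat at the threshold (adjusted p = 0.05, limma), and Apob was also counted in the export list. The remaining markers did not pass, among them Alb at -0.01 with both compounds and Tat at 0.05 with paraquat. None of the 8 markers was called higher (0 also at an unadjusted p under 0.05). The median difference of the 8 markers was -0.26 with diquat and -0.19 with paraquat. For the 9 lipogenic genes it was -0.10 and -0.14. The summed linear value of the markers per array was 16749 to 17564 in controls, 15371 to 15529 with diquat and 15062 to 16439 with paraquat, and Alb stood at 12.73 in each group. Of 6 adipocyte markers 0 passed with either compound (at an unadjusted p under 0.05, 1 higher and 1 lower with diquat and 0 and 1 with paraquat), and their summed value was 577 to 595, 575 to 641 and 574 to 584. Of 6 macrophage markers, limma called 1 with diquat, Cd68 (0.40, adjusted p = 0.0343), and 0 with paraquat, where Cd68 was at 0.35 (0.0732). At an unadjusted p under 0.05, diquat had 1 higher and 2 lower (Lyz2 at -0.21 and Csf1r at -0.13), and paraquat 1 higher and 0 lower. Their sum was 473 to 518 in controls, 535 to 553 with diquat and 541 to 565 with paraquat, and the list median was -0.08 and 0.03. Ptprc and Adgre1 were at 5.38 and 5.53 in controls. Of 5 cholangiocyte markers, diquat raised Sox9 (0.45, adjusted p = 2.47e-04) and lowered Krt7 (-0.29, 0.00328) and Krt19 (-0.16, 0.0383), and paraquat raised Sox9 (0.39, 7.74e-04) and lowered none. Their sum was 2251 to 2360 in controls, 2572 to 2675 with diquat and 2568 to 2664 with paraquat, with list medians of 0.02 and 0.01. Of 7 stellate cell and fibroblast markers 0 passed (1 and 2 lower at an unadjusted p under 0.05), and they summed to 3095 to 3235, 2972 to 3084 and 2803 to 3074. Among them Dcn and Col1a1 were well above the bottom of the range in controls, at 11.07 and 9.18. Of 6 endothelial markers 0 passed (1 lower and 0 lower at an unadjusted p under 0.05), with sums of 322 to 337, 296 to 323 and 322 to 338. For comparison, limma called 7.02% of all genes with diquat and 4.57% with paraquat. Apart from Apob, the called markers were not followed through the alternative settings. The part of these markers in the lipogenic results was not tested.

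**Figure D4:**
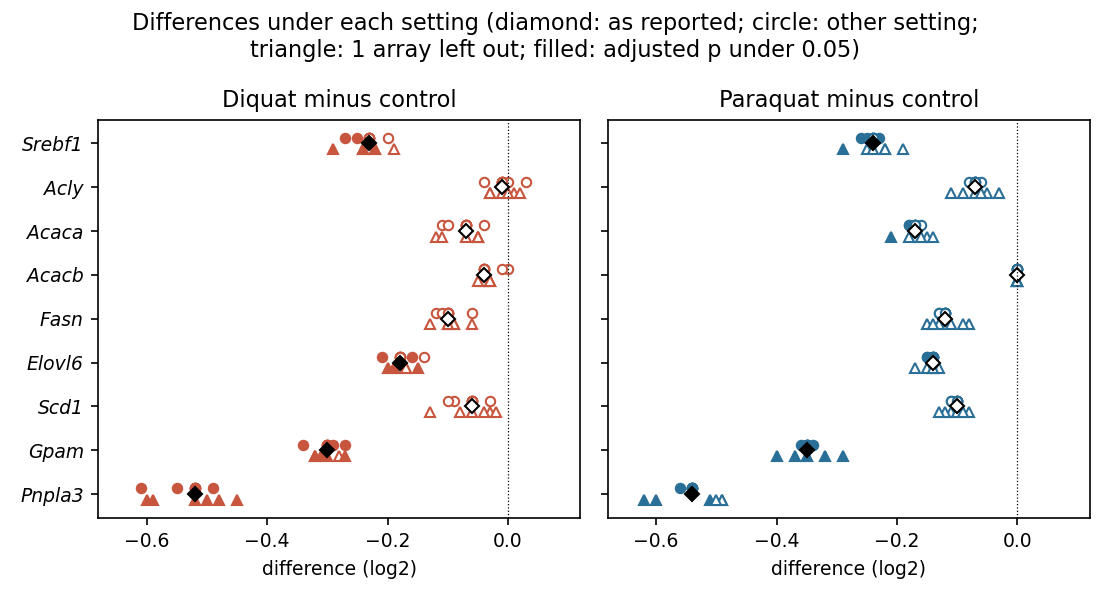
Fitted log2 differences (horizontal axes) of the 9 genes as reported (diamonds), under 8 other settings (circles) and with 1 array left out (triangles), filled where the adjusted p is under 0.05. The differences of Pnpla3 stay between -0.61 and -0.45 with diquat and between -0.62 and -0.49 with paraquat, and those of Srebf1 between -0.29 and -0.19 with each, filled in some settings and open in others.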

How the data were processed

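The authors deposited log2 values for 34472 features, made with Affymetrix Expression Console 1.1 and RMA per the submitters' processing notes; RMA corrects background, applies quantile normalization and summarises probes, and the sources used here do not give its settings. Groups and replicate numbers came from the sample titles, although the descriptions give number 1 for all diquat and paraquat arrays. By the platform annotation, 23521 features had 1 gene symbol, 1814 had several and 9137 had none. The feature with the highest mean was kept for each gene, which left 22180 genes. The number of arrays limits the precision.

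The values were fitted without further scaling by limma 3.58.1 under R 4.3.3 (lmFit, then eBayes) with a mean for each group and all 9 arrays. Adjusted p-values are Benjamini-Hochberg values over all genes tested, with a threshold of 0.05. Errors are limma's standard errors or SDs over 3 arrays, intervals are 95%, and each comparison had 14 alternatives: 8 other settings and 6 fits without 1 array. A gene removed as dim had 13. The genes, lists and tests were chosen with earlier results of these data known. The text names the 10 genes, up to 4 called genes with the largest changes in each list and comparison (or the 1 with the largest change), and a set of fixed genes, some of which are not reported here. Lipa, Apob and Prkab1 were added after their values were seen. The 9 lists held 115 genes measured by a feature of their own. The fit was tested on simulated data. RefSeq sequences came from build GRCm38.p6.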

Additional observations from a re-analysis of the deposited data

How the results depend on the processing

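With 9 arrays, changes near 0.2 on the log2 scale sit close to the threshold. None of the 9 genes changed direction while called. With diquat, 4 of the 9 were lower as reported, 2 with arrays centred on the median, 2 with the 2 groups alone, and 1 to 4 without 1 array (2 without control replicate 1, 1 without control replicate 2). With paraquat, 3 were lower as reported, 5 with dim genes left out (Acacb was then not tested), 5 with array weights, and 1 to 4 without 1 array (1 each without paraquat replicate 2 or 3). The deviations of same-numbered arrays correlated at 0.157, 0.134 and 0.0893 between control and paraquat and at 0.043, 0.075 and -0.107 between control and diquat. Differently numbered control and paraquat pairs ran from -0.119 to -0.0168. Deviations from a group mean sum to 0, so positive same-numbered values push these others below 0, and they add no separate information. Between diquat and paraquat the same-numbered values were -0.192, 0.198 and -0.124. Since no same-numbered set was over 0.1 throughout, the numbers were not taken as pairs. The same-numbered control and paraquat values remain a hint of pairing from the data. Some differently numbered pairs that include diquat correlated more strongly, up to 0.284 for diquat replicate 3 and paraquat replicate 1. In the other lists, 9 of 27 diquat calls and 7 of 20 paraquat calls were kept in every alternative. With the replicate block 4 and 3 of the 9 genes were lower, and 1416 and 930 genes were called in all. In the other lists the block ended the diquat calls of Nr1h3 (adjusted p = 0.0525, limma), Mid1ip1 (0.0522), Idh1 (0.0537), Mttp (0.0596), Pmvk (0.0793) and Prkab2 (0.0669) and the paraquat calls of Mttp (0.0757), Pik3r1 (0.0589), Prkab1 (0.0731) and Prkab2 (0.0675), and Prkag2 passed with diquat (0.0457). In those lists, centring ended the diquat calls of Nr1h3, Mid1ip1, Idh1, Mttp, Apob, Lipa, Mvk, Irs2, Pik3r1 and Stk11. It also ended the paraquat calls of Mttp, Pik3r1 and Prkab1. The 2 groups alone ended the diquat calls of Mlxipl, Nr1h3, Mid1ip1, Idh1, Pgd, Mttp, Apob, Mvk, Pmvk, Pik3r1, Prkab2 and Stk11. They also ended the paraquat calls of Fabp1 and Prkab1, while Prkag2 passed with diquat and Idh1 and Mvk with paraquat. Quantile normalization ended the diquat calls of Pgd and Pmvk (adjusted p = 0.0784 and 0.115, limma) and the paraquat call of Prkab1 (0.0697). The trended robust prior ended the diquat calls of Pmvk (0.0632) and Irs2 (0.0534), and array weights that of Prkab2 (0.0746). Over all genes, the diquat calls numbered 1558 as reported, 959 with the 2 groups alone and 802 to 1908 without 1 array, and the paraquat calls 1014 as reported, 1623 with array weights and 574 to 871 without 1 array. Between the compounds 0 genes were called as reported, 4 with dim genes left out, 1 with centring, 4 after quantile normalization and 0 to 3 without 1 array. The share of higher calls moved with scaling: of the diquat calls 58.9% were higher as reported, 77.5% with centring and 45.2% after quantile normalization, and of the paraquat calls 51%, 55% and 43.9%. Causes of these shifts were not tested.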
